A study of Komagataella pastoris with 4 samples.

Results

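The genes described here encode the enzymes of sterol, fatty acid, phospholipid and sphingolipid synthesis in the methylotrophic yeast *Pichia pastoris* (*Komagataella phaffii*). They were chosen by text: every row of the deposited count table whose KEGG orthology description holds a term such as sterol, squalene, mevalonate, farnesyl, fatty acid synthase, desaturase, cardiolipin, ceramide or the name of a major phospholipid head group. This gave 63 of the 5427 rows, and all 63 were among the 5425 rows with enough counts to be tested. By their descriptions, 49 of the 63 belong to a synthesis step: 7 to the mevalonate pathway, 14 to sterol synthesis, 7 to fatty acid synthesis, 10 to phospholipid synthesis and 11 to sphingolipid synthesis. The other 14 carry a matching word but bind, transfer, phosphorylate or break down lipids, or attach lipids to proteins. Their locus tags place 22 members on chromosome 1, 10 on chromosome 2, 25 on chromosome 3 and 6 on chromosome 4.

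RNA sequencing libraries made after ribosomal RNA depletion were compared between GS115 and Dmxr1. GS115 is a *his4* strain, a histidine auxotroph that is wild type for MXR1. Dmxr1 derives from GS115 by disruption of MXR1, which encodes Mxr1p, a transcription factor with zinc fingers, and the zeocin resistance cassette used for this remains in the strain, which is otherwise the same auxotroph. Cultures of both strains were grown on ethanol (YNBE, a minimal medium) for 14 h, and each genotype is a single strain with 2 libraries. Rescue of the deletion by a copy of MXR1 was not analysed here.

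Ergosterol, the main sterol of fungal membranes, is built from acetyl-CoA through mevalonate, farnesyl diphosphate and squalene, and the later steps of the pathway need oxygen. Fatty acids are made in the cytosol, where acetyl-CoA carboxylase supplies malonyl-CoA to fatty acid synthase, a complex of FAS1 and FAS2 subunits in yeasts. The acyl chains then enter phospholipids, most of which derive from CDP-diacylglycerol, and sphingolipids, in which fungi attach inositol phosphate and mannose to ceramide. On ethanol, the acetyl-CoA used by these pathways comes from acetate.

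Total counts ranged from 24140235 to 29402357 per library. The replicates of a strain were not copies of one another, since chi-square divided by its degrees of freedom was 173 between the GS115 libraries and 93.2 between the Dmxr1 libraries, and all 4 were kept as separate samples. All p-values therefore rest on the spread of duplicate libraries. Values are given as CPM, the counts scaled to a common library size after TMM adjustment, and changes as log2 fold changes of Dmxr1 over GS115 with their standard error (SE). CPM depends on transcript length, so levels are compared between libraries and not between genes. The row described as the ADR1 zinc finger protein, the *Saccharomyces cerevisiae* counterpart of Mxr1p (ACIB2EUKG772516), stood at 287 and 405 CPM in GS115 and at 206 and 258 CPM in Dmxr1 (log2 fold change -0.58 ± 0.21, adjusted p = 0.0787). Counts summed over that row do not show whether the coding region was interrupted.

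With both thresholds, an adjusted p no greater than 0.05 and a log2 fold change of 1 or more in either direction, edgeR's quasi-likelihood test called 1 member lower in Dmxr1 and 0 members higher. Among all genes tested, 3.26% were called lower and 0.535% higher. DESeq2 also called 0 members higher. At an unadjusted p under 0.05 in edgeR, 13 members were higher and 10 lower, beside 731 higher and 1006 lower of the 5425 genes tested. At the adjusted p alone, 8 members rose (12.7%) and 5 fell (7.94%), against 5.07% of all genes that rose and 10.5% that fell. Both Dmxr1 libraries lay above both GS115 libraries for 31 members (49.2%, against 31.1% of all genes) and below both for 15 (23.8%, against 31.3%). The median log2 fold change of the members was 0.15, beside 0.004 over all genes tested.

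The members that rose and those that fell belonged to different steps. Acetyl-CoA carboxylase, both fatty acid synthase subunits, 3 enzymes of sterol synthesis, mevalonate kinase and a phospholipid methyltransferase rose. The members that fell were 4 enzymes of sphingolipid synthesis and the first enzyme of the cardiolipin branch. The largest of these 13 changes was 2.03-fold.

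**Figure D1:**
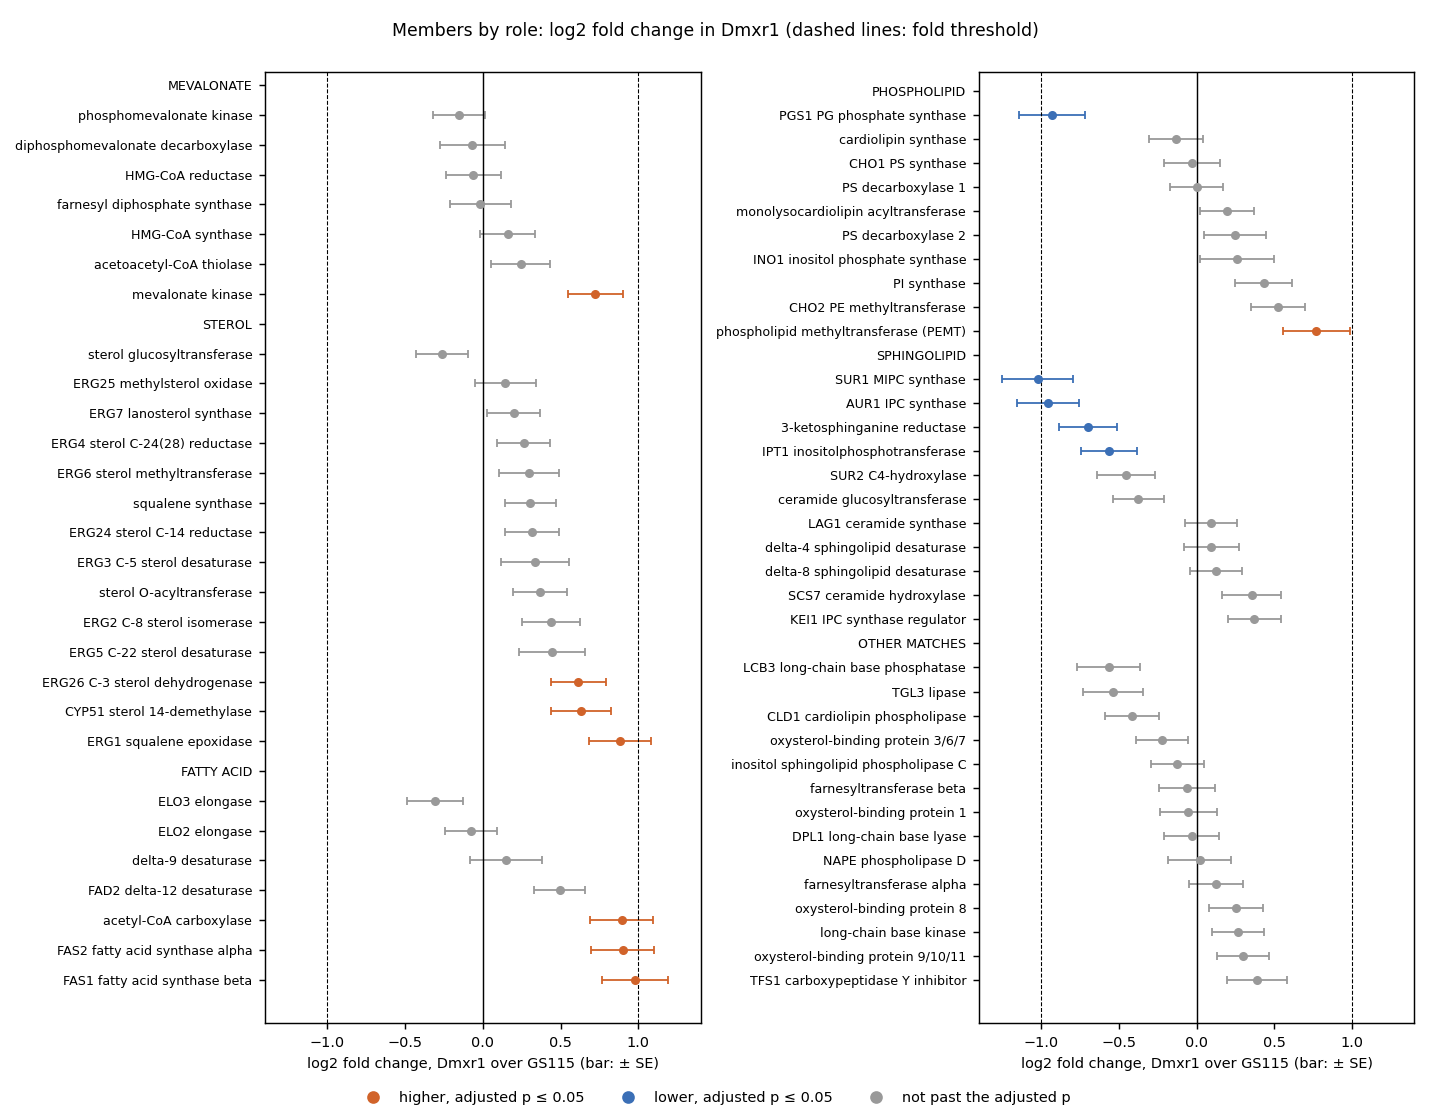
Log2 fold change of Dmxr1 over GS115 for the 63 members, grouped by role, with bars of ± SE (2 libraries per strain) and dashed lines at the fold threshold. The 8 members that rose at the adjusted p lie between 0.61 and 0.98, and the 5 that fell lie between -1.02 and -0.57.

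The 3 members that commit acetyl-CoA to fatty acids rose together. Acetyl-CoA carboxylase (ACIB2EUKG768820), which makes malonyl-CoA, stood at 655 and 736 CPM in GS115 and at 1314 and 1270 CPM in Dmxr1. This was a 1.86-fold rise (log2 fold change 0.89 ± 0.20, adjusted p = 0.00895). FAS1 (ACIB2EUKG768082), the beta subunit of fatty acid synthase, stood at 544 and 673 CPM in GS115 and at 1274 and 1126 CPM in Dmxr1. Its rise of 1.97-fold was the largest among the members (log2 fold change 0.98 ± 0.21, adjusted p = 0.00664). FAS2 (ACIB2EUKG768872), the alpha subunit, stood at 494 and 584 CPM in GS115 and at 1009 and 1001 CPM in Dmxr1, a rise of 1.87-fold (log2 fold change 0.90 ± 0.20, adjusted p = 0.00832). For each of the 3 genes the lower Dmxr1 library was well above the higher GS115 library.

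The counts of these genes kept nearly the same proportions in every library. The ratio of FAS1 to FAS2 CPM was 1.10 and 1.15 in GS115 and 1.26 and 1.12 in Dmxr1, and that of acetyl-CoA carboxylase to FAS2 was 1.33 and 1.26 in GS115 and 1.30 and 1.27 in Dmxr1. Their summed CPM was 1693 and 1993 in GS115 and 3597 and 3397 in Dmxr1.

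The enzymes that lengthen and desaturate the fatty acids did not pass the adjusted p. The delta-9 desaturase (ACIB2EUKG770681), which makes monounsaturated fatty acids, stood at 4183 and 4220 CPM in GS115 and at 4341 and 4993 CPM in Dmxr1, with both Dmxr1 libraries higher by a small margin (log2 fold change 0.15 ± 0.23, adjusted p = 0.682). FAD2 (ACIB2EUKG772246), the delta-12 desaturase that makes polyunsaturated chains, came close, with 83.2 and 77.1 CPM in GS115 and 114 and 112 CPM in Dmxr1 (log2 fold change 0.49 ± 0.17, adjusted p = 0.0539). The elongases of very long chains had log2 fold changes of -0.08 for ELO2 (ACIB2EUKG771371, adjusted p = 0.789) and -0.31 for ELO3 (ACIB2EUKG771760, adjusted p = 0.265). Of the 7 members of fatty acid synthesis, 3 rose (42.9%) and 0 fell, against 5.07% of all genes that rose and 10.5% that fell. At an unadjusted p under 0.05 in edgeR, 4 of the 7 were higher and 0 lower, beside 731 higher and 1006 lower of the 5425 genes tested. At the adjusted p, DESeq2 passed 4 higher and 0 lower, and its share over all genes is not given here. The median log2 fold change of the 7 members was 0.49.

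The 14 members of sterol synthesis lead from farnesyl diphosphate to ergosterol and its storage or glycosylated forms. Of them, 13 had a positive log2 fold change under each scaling and each left-out library. Both Dmxr1 libraries lay above both GS115 libraries in 12 (85.7%, against 31.1% of all genes). The median log2 fold change of the 14 was 0.33. At the adjusted p, 3 of the 14 rose (21.4%) and 0 fell in edgeR, as in DESeq2. Over all genes, 5.07% rose and 10.5% fell in edgeR. At an unadjusted p under 0.05 in edgeR, 4 of the 14 were higher and 0 lower, beside 731 higher and 1006 lower of the 5425 genes tested.

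The largest rise in this group was that of ERG1 (ACIB2EUKG771896), the squalene epoxidase that carries out the first oxygen-dependent step of the pathway. It stood at 243 and 284 CPM in GS115 and at 527 and 442 CPM in Dmxr1, a 1.84-fold rise (log2 fold change 0.88 ± 0.20, adjusted p = 0.00841). The next member to pass was CYP51 (ACIB2EUKG770976), the lanosterol demethylase that is the target of azole antifungals, with 487 and 496 CPM in GS115 and 738 and 785 CPM in Dmxr1. Its 1.55-fold rise (log2 fold change 0.63 ± 0.20, adjusted p = 0.0392) stood on libraries that agreed closely within each strain. ERG26 (ACIB2EUKG769204), a dehydrogenase that acts in the removal of the methyl groups at carbon 4, stood at 134 and 118 CPM in GS115 and at 183 and 203 CPM in Dmxr1, a 1.53-fold rise (log2 fold change 0.61 ± 0.18, adjusted p = 0.0298).

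Other sterol members had smaller differences and did not pass the adjusted p. ERG3 (ACIB2EUKG768951), a desaturase of the sterol ring, stood at 1547 and 1584 CPM in GS115 and at 1746 and 2205 CPM in Dmxr1 (log2 fold change 0.34 ± 0.22, adjusted p = 0.310). ERG5 (ACIB2EUKG771469), the cytochrome P450 that desaturates the side chain, stood at 871 and 925 CPM in GS115 and at 1065 and 1375 CPM in Dmxr1 (log2 fold change 0.44 ± 0.21, adjusted p = 0.164). For both genes the Dmxr1 libraries lay above the GS115 libraries, and Dmxr1 replicate 2 was the highest of the 4. ERG25 (ACIB2EUKG771974), the oxidase that starts removal of the methyl groups at carbon 4, overlapped between strains, with 622 and 715 CPM in GS115 and 714 and 766 CPM in Dmxr1 (log2 fold change 0.15 ± 0.20, adjusted p = 0.646).

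The remaining steps filled in the same range. Log2 fold changes that did not pass the adjusted p were 0.31 for squalene synthase (ACIB2EUKG771673), 0.20 for the lanosterol synthase ERG7 (ACIB2EUKG770328) and 0.32 for the reductase ERG24 (ACIB2EUKG768514). They were 0.30 for the sterol methyltransferase ERG6 (ACIB2EUKG771612), 0.44 for the isomerase ERG2 (ACIB2EUKG772851), 0.26 for ERG4 (ACIB2EUKG772999), which catalyzes the last step, and 0.37 for the sterol O-acyltransferase (ACIB2EUKG771507), which makes storage esters. The exception in sign was the sterol glucosyltransferase (ACIB2EUKG772886), which takes sterols out to glycosides, at 109 and 110 CPM in GS115 and 86.7 and 96.0 CPM in Dmxr1 (log2 fold change -0.26 ± 0.17, adjusted p = 0.288).

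The mevalonate pathway upstream showed a rise in 1 of its 7 members (14.3%, against 5.07% of all genes). Mevalonate kinase (ACIB2EUKG767971), which phosphorylates mevalonate, stood at 22.8 and 26.9 CPM in GS115 and at 42.9 and 39.2 CPM in Dmxr1, a 1.65-fold rise (log2 fold change 0.72 ± 0.18, adjusted p = 0.0130). HMG-CoA reductase (ACIB2EUKG769636), the rate-limiting enzyme of the pathway, overlapped between strains at 159 and 154 CPM in GS115 and 137 and 162 CPM in Dmxr1 (log2 fold change -0.06 ± 0.18, adjusted p = 0.838). HMG-CoA synthase (ACIB2EUKG770547), the enzyme before it, stood at 144 and 168 CPM in GS115 and at 174.5 and 174 CPM in Dmxr1, with an adjusted p of 0.561.

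Acetoacetyl-CoA thiolase (ACIB2EUKG768884), which joins acetyl-CoA units at the entry of the pathway, stood at 181 and 210 CPM in GS115 and at 254 and 210 CPM in Dmxr1 (adjusted p = 0.402). Diphosphomevalonate decarboxylase (ACIB2EUKG768563), which makes isopentenyl diphosphate, stood at 583 and 414 CPM in GS115 and at 470 and 481 CPM in Dmxr1, so that both Dmxr1 libraries fell between the GS115 libraries (adjusted p = 0.851). Farnesyl diphosphate synthase (ACIB2EUKG768894), the branch point to sterols, stood at 295 and 257 CPM in GS115 and at 246 and 300 CPM in Dmxr1 (adjusted p = 0.963). Phosphomevalonate kinase (ACIB2EUKG769736) stood at 42.6 and 40.9 CPM in GS115 and at 39.6 and 35.4 CPM in Dmxr1, with both Dmxr1 libraries lower by a small margin (log2 fold change -0.15 ± 0.17, adjusted p = 0.567). The median of the 7 members was -0.02, and it was 0.05 with upper-quartile scaling and 0.07 with library size alone, so it has no stable sign.

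**Figure D2:**
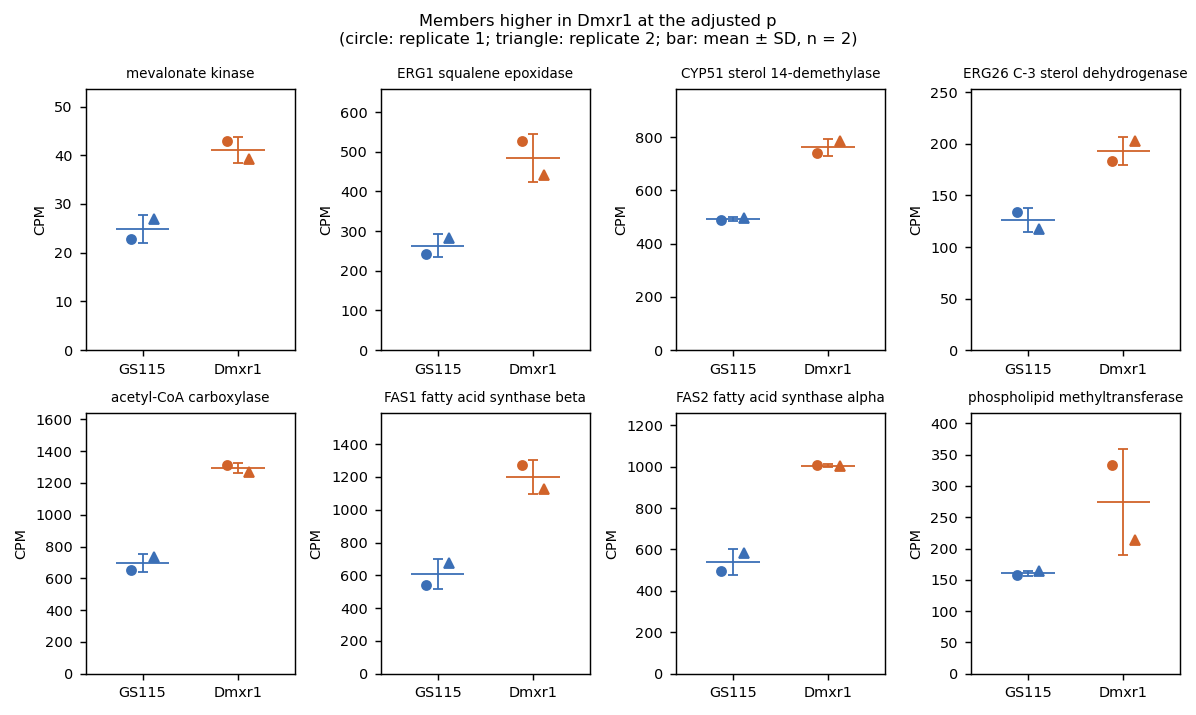
CPM in each library for the 8 members that rose at the adjusted p (circle, replicate 1; triangle, replicate 2; line and bar, mean ± SD, n = 2; axes start at 0). Both Dmxr1 libraries lie above both GS115 libraries in every panel, and the phospholipid methyltransferase has the widest gap between Dmxr1 libraries relative to its level, 334 against 214 CPM.

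In phospholipid synthesis, 1 of 10 members rose and 1 fell at the adjusted p, beside 5.07% of all genes that rose and 10.5% that fell. The phospholipid methyltransferase ACIB2EUKG771087, described as PEMT, adds methyl groups on the way from phosphatidylethanolamine to phosphatidylcholine. It stood at 158 and 164 CPM in GS115 and at 334 and 214 CPM in Dmxr1, a 1.70-fold rise (log2 fold change 0.77 ± 0.22, adjusted p = 0.0255). The rise rested on Dmxr1 replicate 1, without which the log2 fold change was 0.41 (adjusted p = 0.405). CHO2 (ACIB2EUKG768656), the phosphatidylethanolamine methyltransferase of the same route, had close replicates, 120 and 135 CPM in GS115 and 180 and 186 CPM in Dmxr1. It missed the threshold in edgeR (log2 fold change 0.52 ± 0.17, adjusted p = 0.0549) and passed it in DESeq2 (adjusted p = 0.0284).

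PGS1 (ACIB2EUKG768023), which makes phosphatidylglycerol phosphate, the first intermediate of the mitochondrial lipid cardiolipin, fell 1.91-fold. It stood at 155 and 94.5 CPM in GS115 and at 70.8 and 60.0 CPM in Dmxr1 (log2 fold change -0.93 ± 0.21, adjusted p = 0.00910). The GS115 libraries differed by 1.64-fold, and with GS115 replicate 1 left out the difference was -0.53 on the log2 scale and did not pass (adjusted p = 0.0863). The later enzymes of this branch had log2 fold changes of -0.13 for cardiolipin synthase (ACIB2EUKG771403, adjusted p = 0.624) and 0.20 for the monolysocardiolipin acyltransferase that remodels it (ACIB2EUKG771106, adjusted p = 0.462).

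The entry enzymes for inositol and serine lipids did not pass. INO1 (ACIB2EUKG769506), which makes inositol phosphate and is a classic target of phospholipid regulation in *S. cerevisiae*, stood at 1934 and 1991 CPM in GS115 and at 1876 and 2818 CPM in Dmxr1. Dmxr1 replicate 2 alone stood apart, and the log2 fold change was 0.26 ± 0.24 (adjusted p = 0.481). CHO1 (ACIB2EUKG768524), the phosphatidylserine synthase, overlapped between strains at 134 and 168 CPM in GS115 and 145 and 151 CPM in Dmxr1 (adjusted p = 0.927). Log2 fold changes were 0.43 for phosphatidylinositol synthase (ACIB2EUKG769991, adjusted p = 0.119), 0.001 for the mitochondrial phosphatidylserine decarboxylase (ACIB2EUKG768583) and 0.25 for that of the Golgi and vacuole (ACIB2EUKG770789). The median of the 10 members was 0.22. With a library left out it ran from 0.03, without Dmxr1 replicate 1, to 0.285, without GS115 replicate 2.

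In sphingolipid synthesis, 4 of the 11 members fell (36.4%) and 0 rose in edgeR, as in DESeq2. Over all genes, 10.5% fell and 5.07% rose in edgeR. Fewer members fell in other fits: 3 with upper-quartile scaling, and 2 with library size alone or with a replicate block. Which of them passed also changed with the library left out. At an unadjusted p under 0.05 in edgeR, 6 of the 11 were lower and 1 higher, beside 1006 lower and 731 higher of the 5425 genes tested. The members that fell act at the second step of the pathway and at 3 consecutive steps that place the inositol and mannose head group on ceramide. The list held both directions: 6 members had both Dmxr1 libraries below both GS115 libraries (54.5%) and the other 5 had both above (45.5%). Of all genes, 31.3% lay below in this way and 31.1% above. The median log2 fold change of the 11 members was -0.37.

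SUR1 (ACIB2EUKG768002), which adds mannose to inositol phosphorylceramide, was the member called lower at both thresholds. It stood at 262 and 180 CPM in GS115 and at 85.3 and 132 CPM in Dmxr1, a 2.03-fold fall (log2 fold change -1.02 ± 0.23, adjusted p = 0.00827). The value lies just past the fold threshold, and with library size alone it was -0.93 and with upper-quartile scaling -0.95. AUR1 (ACIB2EUKG769750), the inositol phosphorylceramide synthase that acts before it and is the target of aureobasidin A, fell 1.94-fold, from 181 and 140 CPM in GS115 to 69.1 and 96.4 CPM in Dmxr1 (log2 fold change -0.95 ± 0.20, adjusted p = 0.00552). IPT1 (ACIB2EUKG771225), which adds the last inositol phosphate, stood at 91.1 and 81.3 CPM in GS115 and at 50.4 and 66.0 CPM in Dmxr1, where its log2 fold change of -0.57 ± 0.18 passed the test narrowly (adjusted p = 0.0450). IPT1 did not pass with library size alone (log2 fold change -0.48) or with upper-quartile scaling (-0.50). Its log2 fold change was -0.38 without Dmxr1 replicate 1. For all 3 genes GS115 replicate 1 was the highest library and Dmxr1 replicate 1 the lowest.

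KEI1 (ACIB2EUKG771907), the regulatory subunit that works with AUR1, did not share its direction, with 30.8 and 30.0 CPM in GS115 and 42.1 and 36.6 CPM in Dmxr1 (log2 fold change 0.37 ± 0.17, adjusted p = 0.149). At the start of the pathway, 3-ketosphinganine reductase (ACIB2EUKG768713), which makes the long-chain base, fell from 77.2 and 58.8 CPM in GS115 to 38.0 and 45.7 CPM in Dmxr1 (log2 fold change -0.70 ± 0.19, adjusted p = 0.0204). With library size alone in edgeR the reductase did not pass (log2 fold change -0.61, adjusted p = 0.0598). Its log2 fold change was -0.49 without GS115 replicate 1 and -0.57 without Dmxr1 replicate 1. SUR2 (ACIB2EUKG771552), which hydroxylates that base, stood at 264 and 215 CPM in GS115 and at 174 and 176 CPM in Dmxr1 and did not pass (log2 fold change -0.45 ± 0.19, adjusted p = 0.111).

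The ceramide-modifying members did not pass the adjusted p. SCS7 (ACIB2EUKG771439), which hydroxylates the very long acyl chain, stood at 412 and 444 CPM in GS115 and at 551 and 542 CPM in Dmxr1 (log2 fold change 0.35 ± 0.19, adjusted p = 0.219). The enzymes of the glucosylceramide branch, which *S. cerevisiae* lacks, were the delta-4 desaturase (ACIB2EUKG770996), with 175 and 171 CPM in GS115 and 178 and 190 CPM in Dmxr1 (adjusted p = 0.743), the delta-8 desaturase (ACIB2EUKG768087, log2 fold change 0.12) and the ceramide glucosyltransferase (ACIB2EUKG771628). The last of these had both Dmxr1 libraries below both GS115 libraries (log2 fold change -0.37, unadjusted p = 0.0390, adjusted p = 0.134). The ceramide synthase LAG1 (ACIB2EUKG768456), which joins an acyl chain to the long-chain base, did not pass (log2 fold change 0.09, adjusted p = 0.741).

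**Figure D3:**
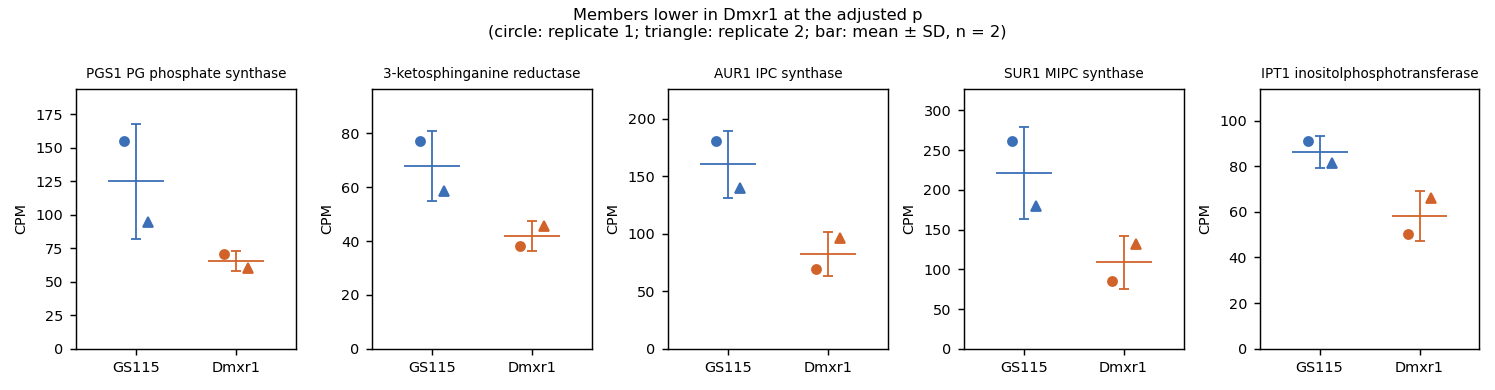
CPM in each library for the 5 members that fell at the adjusted p (circle, replicate 1; triangle, replicate 2; line and bar, mean ± SD, n = 2; axes start at 0). Both Dmxr1 libraries lie below both GS115 libraries in every panel, and replicates of 1 strain differ by up to 1.64-fold, in PGS1.

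Among the 14 other matches, 0 members passed the adjusted p in edgeR, and DESeq2 also passed 0. Over all genes, 5.07% rose and 10.5% fell at the adjusted p in edgeR. At an unadjusted p under 0.05 in edgeR, 3 of the 14 were lower and 0 higher, beside 1006 lower and 731 higher of the 5425 genes tested. Their log2 fold changes ran from -0.57 to 0.39. The members nearest to the threshold were the triacylglycerol lipase TGL3 (ACIB2EUKG770451), with 147 and 102 CPM in GS115 and 80.2 and 91.3 CPM in Dmxr1 (log2 fold change -0.54 ± 0.19, adjusted p = 0.0711), and the long-chain base phosphatase LCB3 (ACIB2EUKG771376), whose Dmxr1 libraries also both lay below the GS115 libraries (log2 fold change -0.57 ± 0.20, adjusted p = 0.0722). The group also held CLD1, a cardiolipin phospholipase (ACIB2EUKG769888, log2 fold change -0.42, adjusted p = 0.110), 4 oxysterol-binding proteins and the subunits of protein farnesyltransferase.

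The replicates of a strain differed in how far they stood from the other strain. Among the 5 members that fell, GS115 replicate 1 was above replicate 2 in all 5, by 1.12 to 1.64-fold, and Dmxr1 replicate 1 was below replicate 2 in 4. Among the 8 members that rose, GS115 replicate 1 was below replicate 2 in 7, and Dmxr1 replicate 1 was above replicate 2 in 6. Replicate 1 of the strains therefore stood farther apart than replicate 2 for most of these genes. With Dmxr1 replicate 1 left out, which leaves a single Dmxr1 library whose spread is taken from GS115, 0 members were higher at the adjusted p and 1 was lower. Most of the rises kept their size in that fit while the SE grew, for acetyl-CoA carboxylase from 0.20 to 0.29. The log2 fold changes of acetyl-CoA carboxylase, FAS1 and FAS2 were 0.87, 0.89 and 0.89, with adjusted p from 0.0649 to 0.0829, and those of CYP51 and ERG26 were 0.68 and 0.69. That of ERG1 was 0.75 (adjusted p = 0.112), and those of SUR1 and AUR1 were smaller in size, -0.74 (adjusted p = 0.126) and -0.73 (adjusted p = 0.105). With the other libraries left out in turn, the numbers of members past the adjusted p also changed. The number of genes called over the whole table moved in these fits too, so such counts do not show a change particular to the members. CYP51 did not pass with any library left out and ERG26 passed with 1 of the 4, while their log2 fold changes stayed between 0.59 and 0.68 and between 0.52 and 0.71.

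**Figure D4:**
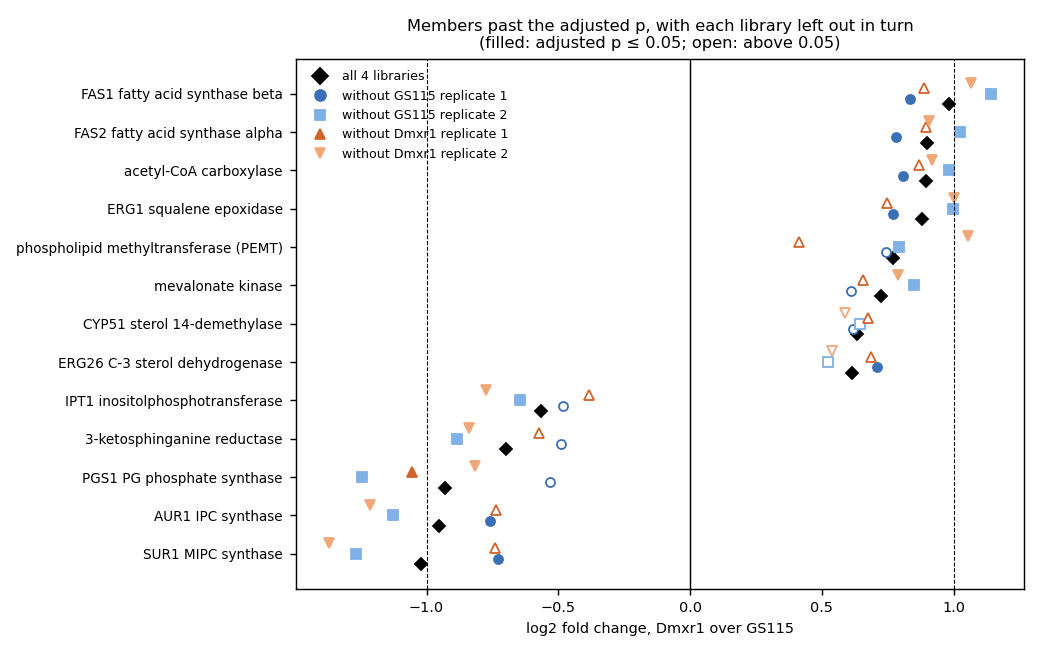
Log2 fold change of Dmxr1 over GS115 for the 13 members past the adjusted p with all 4 libraries (black) and with each library left out in turn, filled where the adjusted p was at most 0.05 and open where it was above. No value changes sign, the fatty acid synthesis members stay between 0.78 and 1.14, and PEMT ranges from 0.41 to 1.05.

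Enzymes next to these pathways that the text search leaves out were sought by the names of 15 further steps. No row was found for 3 of the steps, and the others gave 20 rows. Of the 20 rows, 3 were called lower at both thresholds (15.0%) and 0 higher, in edgeR as in DESeq2. Over all genes, 3.26% were called lower and 0.535% higher in edgeR. At an unadjusted p under 0.05 in edgeR, 4 of the 20 rows were lower and 5 higher, beside 1006 lower and 731 higher of the 5425 genes tested. At the adjusted p alone, 4 fell (20.0%) and 3 rose (15.0%), against 10.5% of all genes that fell and 5.07% that rose. Acetyl-CoA synthetase 2 (ACIB2EUKG771575), which turns acetate into acetyl-CoA, rose from 455 and 536 CPM in GS115 to 954.5 and 807 CPM in Dmxr1 (log2 fold change 0.83 ± 0.21, adjusted p = 0.0142). It did not pass without GS115 replicate 1 (log2 fold change 0.71) or without Dmxr1 replicate 1 (log2 fold change 0.70). The second acetyl-CoA synthetase row (ACIB2EUKG769911) stood at 2462 and 2493 CPM in GS115 and at 2440 and 2638 CPM in Dmxr1 (log2 fold change 0.04 ± 0.22, adjusted p = 0.929).

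Of the acyltransferases that make phosphatidate, the precursor of phospholipids and storage fat, a glycerol-3-phosphate acyltransferase (ACIB2EUKG771949) rose with a log2 fold change of 0.63 ± 0.17 (adjusted p = 0.0245). A lysophosphatidate acyltransferase (ACIB2EUKG767938) rose from 74.8 and 74.6 CPM in GS115 to 153 and 128 CPM in Dmxr1 (log2 fold change 0.91 ± 0.17, adjusted p = 0.00303). A second enzyme of that step, LOA1 (ACIB2EUKG770282), fell with a log2 fold change of -0.65 ± 0.19 (adjusted p = 0.0284). The glycerol-3-phosphate acyltransferase did not pass without GS115 replicate 1 (log2 fold change 0.56) or without Dmxr1 replicate 1 (0.48). LOA1 did not pass without GS115 replicate 1 (log2 fold change -0.48), Dmxr1 replicate 1 (-0.595) or Dmxr1 replicate 2 (-0.71). The log2 fold change of the lysophosphatidate acyltransferase ACIB2EUKG767938 ran from 0.78, without Dmxr1 replicate 1, to 1.03, without Dmxr1 replicate 2. The 4 phosphatidate phosphatase rows did not pass, with log2 fold changes from -0.16 to 0.42.

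The 3 rows called lower were geranylgeranyl diphosphate synthase and 2 long-chain acyl-CoA synthetases. Geranylgeranyl diphosphate synthase (ACIB2EUKG770924), which takes farnesyl diphosphate away from sterols, fell from 178 and 137 CPM in GS115 to 65.7 and 74.3 CPM in Dmxr1 (log2 fold change -1.17 ± 0.18, adjusted p = 0.000927). Without GS115 replicate 1 its log2 fold change was -0.97, just short of the fold threshold. The acyl-CoA synthetases, which activate free fatty acids rather than make them, fell with log2 fold changes of -1.22 ± 0.21 (ACIB2EUKG769889, adjusted p = 0.00173) and -2.28 ± 0.19 (ACIB2EUKG772675, adjusted p = 1.63e-06). Both rows of serine palmitoyltransferase, which carries out the first step of sphingolipid synthesis ahead of 3-ketosphinganine reductase, overlapped between strains, with log2 fold changes of 0.01 and 0.02.

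Further rows without a KEGG entry bear on sterol synthesis. A row described as a sterol regulatory element binding protein (ACIB2EUKG770635), a transcription factor family that activates sterol genes, stood at 34.7 and 31.9 CPM in GS115 and at 38.3 and 37.0 CPM in Dmxr1 (log2 fold change 0.18 ± 0.17, adjusted p = 0.494). ERG28 (ACIB2EUKG771428), which in *S. cerevisiae* tethers the enzymes of the demethylation complex, ERG26 among them, rose from 68.0 and 68.5 CPM in GS115 to 95.9 and 107 CPM in Dmxr1 (log2 fold change 0.57 ± 0.17, adjusted p = 0.0305). It did not pass without GS115 replicate 1, without Dmxr1 replicate 1 or without Dmxr1 replicate 2. The log2 fold changes in these fits were 0.565, 0.65 and 0.49.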

How the data were processed

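Per the labels, libraries were made from total RNA after removal of ribosomal RNA. The submitters' processing notes name bcl2fastq 2.19.0.316, fastp 0.19.6, Bowtie2 and featureCounts 1.6.4, and the study's methods name a *K. phaffii* genome as reference. The authors deposited a table of read counts, one value per gene and library, without normalization. Whether counting used strand, and how it treated reads that align more than once, is not given in the sources used here. Reads of overlapping, antisense or near-identical genes may therefore be shared between rows.

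Rows with at least 5 counts in at least 2 of the 4 libraries were tested (5425 of 5427) with edgeR 4.0.16 in R 4.3.3, by the quasi-likelihood test with TMM scaling and no covariate. P-values were adjusted by Benjamini-Hochberg over all genes tested. The SE was derived from the log2 fold change and its F statistic (the size of the former over the square root of the latter). Calls needed an adjusted p no greater than 0.05 with a log2 fold change of 1 or more in size. The pipeline was tested on simulated data with larger fold changes than those of the members. That run does not show how well changes of the members' size are called.

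Each library's value is given for members past the adjusted p and for the 4 members of each synthesis role with the highest mean CPM. The others are named where they complete a step. The members, roles and lists were chosen with earlier results of these data known, and no list was tested as a whole. DESeq2 1.42.0, other scalings, other count minimums (none, or 50), a replicate block and leaving out each library were the alternatives. Names come from the KEGG and protein descriptions in the table. The reference gene table describes another species and matched 0 members, so no sequence or coordinate is given.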

Additional observations from a re-analysis of the deposited data

How the results depend on the processing

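Counts of members at both thresholds turned on values close to the fold threshold. With library size alone or with upper-quartile scaling, 0 members were called lower and 1, FAS1, was called higher. With single libraries left out, the counts of members called lower and called higher varied, and so did the counts over all genes. At the adjusted p alone, the left-out libraries gave 1 to 8 members lower and 0 to 7 higher, library size alone gave 3 lower and 9 higher, and DESeq2 gave 5 lower and 10 higher. Over the members the median log2 fold change was 0.23 with library size alone, 0.21 with upper-quartile scaling and 0.11 to 0.25 with a library left out. The cause of these shifts was not tested. DESeq2, RLE size factors and the other count minimums changed no count of members called at both thresholds.

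At both thresholds, higher calls made up 14.1% of all calls among all genes, 24.8% with library size alone and 22.5% with upper-quartile scaling. Among members at the adjusted p alone the share of higher calls was 61.5%, 75.0% with library size alone and 73.3% with upper-quartile scaling. These shares rest on different thresholds and cannot be set side by side. At the adjusted p alone, 275 of the 5425 genes tested rose and 567 fell. Library size alone and upper-quartile scaling moved the median of all genes by at most 0.08 on the log2 scale.

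The replicate numbers pair no samples by the labels, and same-numbered libraries did not deviate together (correlation of replicate differences between strains -0.144). With a replicate block, 3 members were lower and 5 higher at the adjusted p, 1 was called lower and 0 higher, and CYP51, ERG26, PEMT, 3-ketosphinganine reductase and IPT1 no longer passed. With the crossed pairing, chosen after seeing the data, 7 were lower and 10 higher.

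For the 27 members that the naming rule gives with library values, the alternatives other than the crossed pairing left the adjusted p on the same side of its threshold in 262 comparisons, lost it in 30 and gained it in 5. Only a member past the adjusted p in the main fit could lose it, so all 30 losses fell on such members. The other named members could only keep missing it or gain it, and they fill much of the 262. Most of the losses came with a library left out. Of the members past the adjusted p, none changed sign in these comparisons. With 2 libraries per strain the spread of each gene rests on little information, and a member that missed the threshold is not shown to be unchanged: the SE of the members ran from 0.17 to 0.24 on the log2 scale.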
